A study of Mus musculus with 4 samples.

Results

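A stretch of mouse chromosome 2, chr2:92380001-92440000 in the mm9 build, gave rise to one of the densest groups of MILI-bound small RNAs in the juvenile testis. Its members are all listed sequences whose 5′ end lies in that 60 kb interval: 10910 of 4906138 sequences, or 0.222% of the list (95% Clopper-Pearson interval 0.218–0.227%). The interval was chosen by the number of sequences listed there and by their strand, so the number, the density and the strand below are a description and support nothing. The sequences came from 2 Tdrd9-/- and 2 Tdrd9+/- libraries. Mice of the strain C57BL/6 gave testes at an age of 14 days (dpp), MILI was immunoprecipitated, and a gel slice at about 28 to 30 nt gave the RNAs. All animals carried at least 1 mutant Tdrd9 allele, no wild-type library was part of the design, and the labels do not say how many animals a library pools. The study asked how MILI-bound RNAs differ without TDRD9. The deposited list pools the 4 libraries and holds neither read counts nor library labels, so depth per library is unknown, the genotypes were not compared, and the 95% intervals printed beside shares cover counting error over distinct sequences only.

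MILI (Piwil2) is the PIWI protein that binds piRNAs in spermatogonia and early meiotic cells. Piwi-interacting RNAs are cut from long single-stranded precursors, many of them transcribed from intergenic clusters, and the first cut leaves mostly a U at the 5′ end. MILI can also slice RNAs of the opposite strand, which leaves partners whose first 10 nt are complementary and an A at position 10 of the partner. TDRD9 is a helicase that works with the related protein MIWI2 in silencing retrotransposons. Marker genes of testis cells were also looked up, but their number of distinct MILI-bound sequences does not measure the mix of cells. All 6 germ cell markers examined had sense sequences in the list, from 130 for Dazl to 590 for Zbtb16, and Piwil2 itself had 452. Sertoli markers had 27 for Sox9 and at most 7 for the others. The Leydig markers Cyp17a1, Hsd3b1 and Insl3 had 0 beside 247 for Star, which was more than for any germ cell marker but Zbtb16. The spermatid genes Prm1, Prm2 and Acrv1 had 0 beside 23 for Tnp1.

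The plus-strand 5′ ends from which the most members of different length started show how the 3′ ends varied around a shared 5′ end. Of 5740 plus-strand ends, 2 had 8 sequences, 17 had 7 and 3092 had 1. The 5 fullest are printed with the longest sequence of each, and capitals run from the 3′ end of its shortest member to that of its longest, including bases between them at which no listed 3′ end fell.
chr2:92416757-92416786, plus strand, 8 sequences of 21 to 30 nt: tagaatcaaacagcaagagaACCTTAGGTC
chr2:92436058-92436087, plus strand, 8 sequences of 23 to 30 nt: tgcagaagcaaagaacacaacaGATGACAG
chr2:92381611-92381639, plus strand, 7 sequences of 23 to 29 nt: tgaagatgtagatggctggtgaCCTGTGT
chr2:92381964-92381991, plus strand, 7 sequences of 20 to 28 nt: tagaagatggaactagagaTGAAGGGAG
chr2:92417649-92417678, plus strand, 7 sequences of 20 to 30 nt: taagtagattttctgcaagGCTATATCGAT
All 5 began with U, written T in the list, and in each the 3′ ends fell mostly at neighbouring bases downstream of the fixed 5′ end. Across the plus strand 10831 sequences used 5740 distinct 5′ ends and 7989 distinct 3′ ends, so 1.89 sequences shared a 5′ end and 1.36 shared a 3′ end. A 5′ end with 5 or more sequences occurred 260 times and such a 3′ end 24 times.

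Plus-strand sequences were listed in every kb from the left border to the right border. In the first 1 kb bin 22 plus-strand and 30 minus-strand sequences were listed. The next bin, chr2:92381001-92382000, was the fullest of all, with 336 plus-strand sequences at 152 ends. Each of the 59 bins from there to the right border held at least 70, with a median of 179 and a mean of 183 ± 57.5 (SD over bins), and the fullest held 4.80 times as many as the emptiest. The other bins among the 5 fullest were chr2:92421001-92422000 with 307, chr2:92414001-92415000 with 272, and chr2:92382001-92383000 and chr2:92436001-92437000 with 263 each. The 5 emptiest were the last bin, with 70, chr2:92430001-92431000, with 92, chr2:92405001-92406000 and chr2:92438001-92439000, with 94 each, and chr2:92397001-92398000, with 99. Plus-strand members covered 71.7% of the interval (42995 of 60000 bases), with a median of 4 and at most 68 sequences over a covered base. The 650 uncovered stretches had a median length of 16 nt, and 18 were 100 nt or longer. The longest, chr2:92398894-92399468, spanned 575 nt with no sequence on either strand. Each sequence is listed at 1 position, and no mm9 genome was used here, so the part of repeated sequence in these gaps was not tested.

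**Figure D1:**
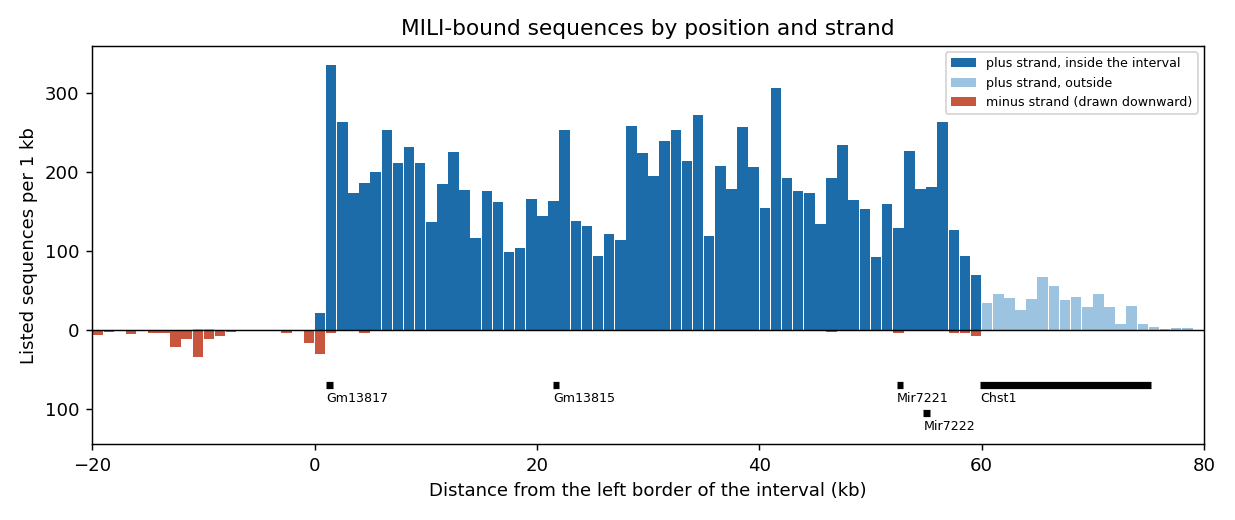
Listed sequences per 1 kb (y axis) by distance from the left border of the interval (x axis, kb), plus strand upward and minus strand downward. Black bars mark where exact sense matches to 5 annotated genes begin. All bars but that of Chst1 are drawn longer than the matches, and that of Gm13817 takes only matches inside the interval. The plus strand steps up to 336 sequences in the second bin, stays at 70 or above to the right border, and continues at a lower level where the Chst1 matches lie.

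On a finer scale the sequences came in tight groups. Of 600 stretches of 100 b, 20 had no plus-strand 5′ end, the median had 14, and the fullest 60 (10%) held 28.4% of the plus-strand sequences. The fullest, chr2:92412001-92412100, held 97 sequences at 42 ends and used 20 of its 26 U positions. U was the first base of 62.9% of its sequences (52.5–72.5%), below the share over all members. A second 5′ end lay 1 nt downstream of 30.4% of plus-strand ends, against 10.8% on average at distances of 40 to 59 nt. The median over 509 other clusters, built by joining 20 kb windows with at least 1000 sequences, was 34.9% at 1 nt, and 358 of them were higher.

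Borders of the interval follow 20 kb windows and not the edges of the dense stretch. The 3 windows inside held 3684, 3790 and 3436 sequences, whereas the windows just outside held 138 on the left and 544 on the right. On the left only 2 plus-strand sequences were listed over 20 kb. The minus strand there was not empty: 228 minus-strand sequences lay in the 50 kb to the left of the interval, against 6 on the plus strand, and 86.4% of them (81.3–90.6%) began with U. Within the interval, 34 of the 79 minus-strand members lay in the first 2 kb, beside the step in the plus strand, 12 in the last 2 kb, and 33 between them. In 39 of the 60 bins the minus strand had no sequence.

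On the right the cluster ran up to the gene Chst1, which encodes a sulfotransferase of keratan sulfate, and continued through it at a lower density. The last plus-strand gap, chr2:92439564-92439851, was 288 nt long. The 10 kb before it held 1588 plus-strand sequences (159 per kb at 886 ends) and the 10 kb after it 417 (41.7 per kb at 281 ends), a ratio of 3.81. The first sequence that matched a Chst1 transcript began just beyond that gap, at 92439880. Before the gap 74.8% of sequences began with U and after it 80.1%, and the mean lengths were 27.03 and 26.9 nt. Of 539 plus-strand sequences in the 16 kb to the right of the border, 61 matched a spliced Chst1 transcript exactly, and 0 minus-strand sequences lay there. The next 20 kb held 14 plus-strand sequences. Because reads and libraries cannot be counted, a lower density of distinct sequences cannot be told apart from less RNA, fewer cells with that RNA, or sequence that was not listed.

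Few members matched any annotated transcript. There were 120 (1.10%, 0.913–1.31%) sense to a GENCODE M21 transcript, and 98.9% matched none in either orientation. No such share is given here for the rest of the list or for other clusters. These shares therefore describe the members and do not set them apart. On GRCm38, the build of that annotation, the genes follow in the order Slc35c1, Gm13814, Gm13817, Gm13815, Mir7221, Mir7222, Chst1 and Gm13816. Gm13817, a lincRNA, lies across the left edge, where 4 minus-strand members were sense to it (chr2:92381051-92381121) and 3 plus-strand members antisense. With those to the left of the interval it had 8 sense sequences, from 92369880 to 92381121. The lincRNA Gm13814 beside it had 67 antisense and 1 sense sequence, all to the left of the interval, from 92367172 to 92369952. Chst1 matched 3 members. On the left, Slc35c1, which encodes a Golgi transporter of GDP-fucose, had 82 sense sequences that ended at 92299886, far from the cluster. Gm13816 on the right had 0.

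The annotated feature with the most members was Gm13815, a processed pseudogene in the sense orientation. It matched 75 members at 46 ends (chr2:92401430-92401794), and 77.3% of them (66.2–86.2%) began with U. Its sequence resembles Rps27a, which encodes ubiquitin fused to a small-subunit ribosomal protein. This gene was looked up after the member sequences had been seen. Of the 75 members, 53 matched a Rps27a transcript with at most 3 mismatches and a median of 1 over all 75, but 0 members matched it exactly. Over the whole plus strand 64 members came this close, in a pair of copies: 57 at chr2:92401430-92401873 and 7 at chr2:92402429-92402533, the second outside the annotated pseudogene. These 64 were in the orientation of the messenger RNA.

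Several members had near-copies elsewhere inside the same cluster. The first 20 nt recurred at more than 1 listed position for 44 members (0.403%, against 0.842% in the rest of the list), in 14 different 20-mers. For 5 of these 20-mers every listed position lay inside the interval. They form 3 pairs of places, 2 of which hold 2 overlapping 20-mers each, and 1 pair of sequences per place is printed with the differing bases in capitals, and positions are counted from 1 at the 5′ end.
chr2:92388546-92388574, plus strand: tcacacgtctaaatgtgatgtcCggtcac
chr2:92389901-92389927, plus strand: tcacacgtctaaatgtgatgtcTggtc
chr2:92401591-92401618, plus strand: tgagacttcgtggtggtaggaaaaggGa
chr2:92402446-92402473, plus strand: tgagacttcgtggtggtaggaaaaggAa
chr2:92409683-92409710, plus strand: ggccttggatctgatggagaggaGgttC
chr2:92433827-92433854, plus strand: ggccttggatctgatggagaggaAgttT
The first pair differs by C23T over 27 compared bases and lies 1355 nt apart. The second pair differs by G27A, lies 855 nt apart and belongs to the 2 Rps27a-like copies. The third pair differs by G24A and C28T and lies 24144 nt apart. The other 9 20-mers also occurred outside the interval. Among them were the simple repeat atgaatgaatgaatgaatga, at 4 listed positions, and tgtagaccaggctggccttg, at 3 listed positions and in transcripts of 303 genes.

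Both microRNA genes annotated within the cluster gave sequences of piRNA length, as nearly all of the list has. The RNAs were MILI-bound and cut from a gel at about 28 to 30 nt. Sequences of 21 nt made up 0.0624% of the rest of the list and those of 23 nt 0.299%. Mature microRNAs of 21 to 23 nt could therefore hardly be listed, and whether these genes also give them was not tested. The RefSeq hairpins (GRCm38.p6), placed in mm9 by a member that each contains exactly, put Mir7221 at chr2:92432363-92432434 and Mir7222 at chr2:92434759-92434833. Mir7221 held 10 members of 25 to 28 nt and Mir7222 held 28 members of 25 to 30 nt at 17 ends, and no member lay on the minus strand over either. The annotated 3p products were the beginnings of longer members. The mature sequences are printed with their seed, bases 2 to 8, in capitals, and below each the longest member that starts with it, with the mature part in capitals.
mmu-miR-7221-3p: uGACUGUGggcuggggacugg
chr2:92432414-92432440, plus strand: TGACTGTGGGCTGGGGACTGGgggcgg
mmu-miR-7222-3p: uCCAGGACagugggcaggagcag
chr2:92434811-92434838, plus strand: TCCAGGACAGTGGGCAGGAGCAGaggag
Members that started with the 21-nt miR-7221-3p numbered 2, of 26 and 27 nt, and members that started with the 23-nt miR-7222-3p numbered 3, of 25 to 28 nt. The 5p products of both genes were the start of 0 members, and 0 members held them. The annotated 5p product of Mir7222 has 27 nt, the commonest length in the list. The limit on sequences of 21 to 23 nt therefore does not cover it. Plus-strand 5′ ends of 12 members lay in the Mir7221 hairpin, and 42.1% of 833 stretches of that length in the interval held as many. The Mir7222 hairpin had 33, which 9.25% of 800 stretches of its length reached.

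A U was far more often a 5′ end than any other base. U was the first base of 74.8% of members (73.9–75.6%), against 75.4% of the rest of the list, a value inside the members' interval. That match held for sequences only. Counted by distinct 5′ ends, U was the first base of 66.9% of members. In the rest of the list it was above 68.8%, the share among ends with 1 sequence, which was the lowest class there. The bases that members cover could be read from the members themselves, and 27.8% of them were U. Of the 11952 covered U positions on the plus strand, 32.2% (31.3–33.0%) were a listed 5′ end. The same held for 6.99% of A positions (6.52–7.48%), 5.99% of C (5.50–6.51%) and 5.31% of G (4.90–5.74%), so U positions were used 5.27 times as often as the other bases together. The base after the U also went with its use. U positions followed by A were used in 45.3% of cases (43.2–47.5%) and those followed by G in 36.8% (35.3–38.4%), against 25.9% before C (24.2–27.6%) and 25.6% before U (24.2–27.2%). U positions preceded by G were used in 18.7% of cases (17.1–20.3%), against 28.7 to 36.5% after the other bases. That last comparison leaves out 513 U positions whose preceding base lay in no listed sequence. All 513 are 5′ ends, and had every one of them followed a G the value would be 32.7%.

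**Figure D2:**
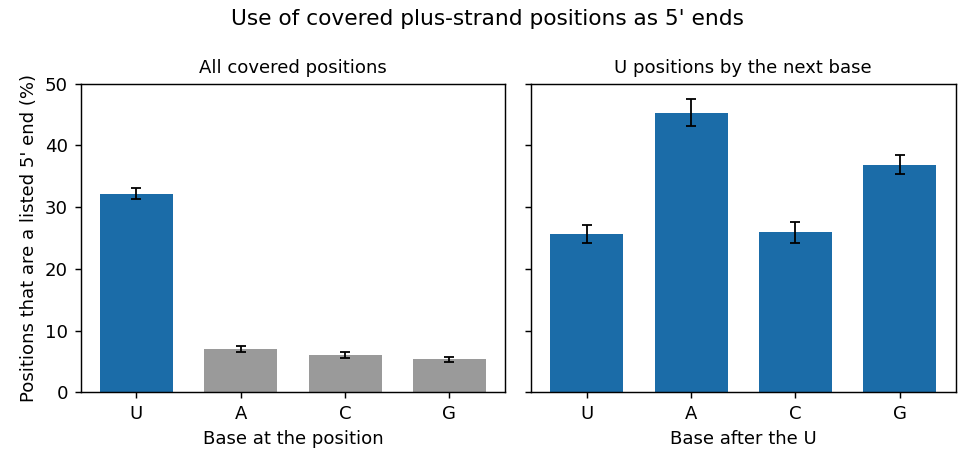
Share of covered plus-strand positions that are a listed 5′ end (y axis, %), by the base at the position (left) and, for U positions, by the next base (right), with exact 95% intervals as error bars. U positions stand at 32.2% against 5.31 to 6.99% for the other bases, and U before A stands highest at 45.3%.

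The more sequences a 5′ end had, the more often it was a U. Among members this share was 56.5% (54.7–58.2%) of ends with 1 sequence, 72.04% (69.5–74.5%) with 2, 81.3% (78.1–84.1%) with 3, 88.8% (85.4–91.6%) with 4 and 93.5% (89.8–96.2%) with 5 or more. In the rest of the list the ends with 1 sequence carried a U more often, in 68.8% of cases (68.8–68.9%), whereas ends with 5 or more differed by less than the members' interval, at 92.0%. Ends with a single sequence made up 54.2% of the members' ends, against 74.2% in the rest of the list, most of which lies outside clusters. Non-U ends often sat near a U end. A U end lay within 1 nt of 31.7% of non-U ends (29.6–33.8%), against 15.8% (15.4–16.2%) of all covered non-U positions. By single distance, a U end lay 1 nt upstream of 19.6% of non-U ends and 1 nt downstream of 16.6%. The shares were 22.5% and 15.3% at 2 nt, and 19.3% and 17.8% at 3 nt, so 1 nt did not stand out.

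The lengths were those of MILI-bound piRNAs, spread somewhat more widely than in the rest of the list and about as widely as in other clusters. The median SD of the 509 other clusters was 1.41 nt, and 249 of them had a larger SD than the chromosome 2 cluster. The mean was 27.1 nt (SD 1.41 nt, n = 10910 sequences) and the mode 27 nt, against 27.1 nt (SD 1.31 nt) and the same mode in the rest of the list. The range was 18 to 32 nt. Sequences of 24 and 25 nt made up 10.6% of members (10.1–11.2%), against 7.39% of the rest (7.37–7.42%), and sequences of 26 to 28 nt 72.5% (71.7–73.4%) against 77.0% (76.9–77.02%). On the long side, 29 nt made up 13.2% of members (12.6–13.9%), against 11.8% of the rest. At 30 nt the order was reversed, with 2.54% of members (2.25–2.85%) against 3.06% of the rest. Among the 509 other clusters, 100 had a larger share of 24 and 25 nt than the chromosome 2 cluster, and the median was 9.27%. Members also had more sequences per end than the rest of the list, 1.88 against 1.42, as clusters commonly did: on the main strand the value was 1.89 here, the median of the 509 others was 1.81, and 156 of them were higher. The part of this in the difference in length was not tested.

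**Figure D3:**
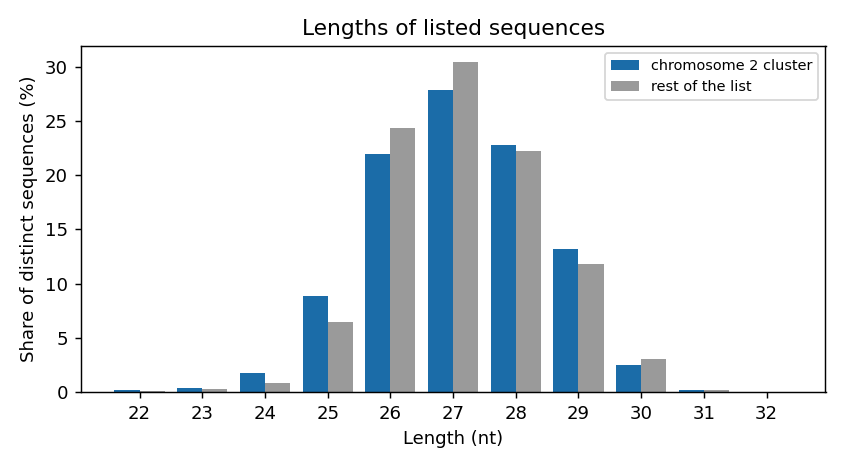
Share of distinct sequences (y axis, %) by length (x axis, nt) for the chromosome 2 cluster and for the rest of the list. Both peak at 27 nt, and the cluster has the larger share at 24 and 25 nt, together 10.6% against 7.39%, and at 29 nt, 13.2% against 11.8%. At 30 nt it has the smaller share, 2.54% against 3.06%.

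A at position 10 was close to its level at the neighbouring positions on the plus strand and well above it on the minus strand. Plus-strand members had A at position 10 in 30.8% of cases (29.9–31.7%), beside 29.8% A at positions 11 to 20, just under that interval. The 79 minus-strand members had it in 59.5% (47.9–70.4%), beside 34.7% at positions 11 to 20. Their first base was U in 64.6% of cases (53.0–75.0%) and A in 20.3% (12.04–30.8%), against 74.9% and 10.4% on the plus strand. Minus-strand members averaged 27.4 nt (SD 1.31 nt).

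Minus-strand ends paired with plus-strand ends by the 10-nt overlap more often than by any other overlap examined. There were 14 such pairs, against 2 to 8 for each of the other overlaps from 1 to 20 nt (mean 4.26), a ratio of 3.28. They involved 14 of the 63 distinct minus-strand ends (22.2%, 12.7–34.5%) and 0.244% of the plus-strand ends. The 14 plus-strand partners all began with U, which places an A at position 10 of the minus-strand partner by complementarity. The minus-strand partners began with U in 4 of 14 cases, whereas 35 of the 49 other minus-strand ends did. The first 5 pairs by position are printed, minus strand above plus strand, with the 10 overlapping bases in capitals.
chr2:92380575-92380604, minus strand, 3 sequences: TAAGAAACTAaaactgaatgcatagagact
chr2:92380595-92380623, plus strand, 2 sequences: TAGTTTCTTAatctaagctcggaccaaat
chr2:92384392-92384417, minus strand, 1 sequence: ACAAGATGCAgaagacagagttaggt
chr2:92384408-92384433, plus strand, 1 sequence: TGCATCTTGTcatattctgtggttcc
chr2:92384707-92384735, minus strand, 1 sequence: CCATTTCAAActgaagcggctgactcctt
chr2:92384726-92384751, plus strand, 2 sequences: TTTGAAATGGtctggttgagagaggt
chr2:92385449-92385474, minus strand, 1 sequence: AGAGAAATTAggaggtgagatggaca
chr2:92385465-92385493, plus strand, 2 sequences: TAATTTCTCTgtcctttggacagacttct
chr2:92389604-92389630, minus strand, 1 sequence: CTCTGAGAAAaagagattctgcaattg
chr2:92389621-92389648, plus strand, 1 sequence: TTTCTCAGAGagcagatacgtcatattc
Of the 14 pairs, 1 lay in the first 2 kb, 2 in the last 2 kb and 11 in the much longer stretch between. The paired plus-strand ends had 2.07 sequences on average, against 1.89 over all plus-strand ends.

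**Figure D4:**
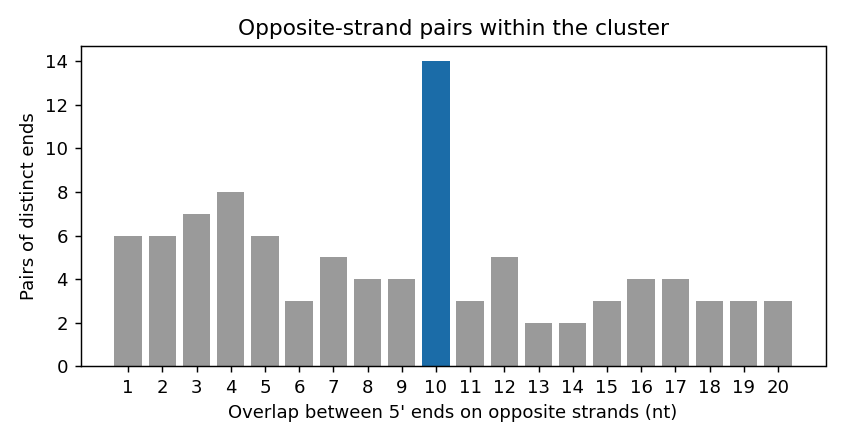
Number of pairs of distinct 5′ ends on opposite strands within the cluster (y axis) by the length of their overlap (x axis, nt). The 10-nt overlap has 14 pairs, and the other overlaps from 1 to 20 nt have 2 to 8.

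Stepwise cutting of a precursor would place a 5′ end directly after a 3′ end of the same strand, if 3′ ends stayed where the cut fell. Whether they did was not tested, and the plus strand had 7989 distinct 3′ ends for 5740 distinct 5′ ends. The distances below therefore describe listed ends and not cuts. On the plus strand 899 distinct 3′ ends had a 5′ end at distance 1, against a mean of 876 at distances 2 to 20 (846 to 912). The ratio of 1.03 had a Poisson interval of 0.961 to 1.10, and distance 3 had more, at 912. The base directly after the 3′ end was U in 28.9% of cases (28.02–29.8%), beside 27.8% U among covered bases. It could be read for 10134 of 10831 plus-strand members, since 697 lay at the edge of the covered sequence. The last base of the members was U in 28.9% as well. Thus 5′ ends at distance 1 did not exceed those at nearby distances beyond counting error, and U after the 3′ end was not separated from its share of covered bases. The interval over sequences lay just above 27.8%, but with each distinct 3′ end counted once the share was 28.8% (27.7–29.8%), and over all plus-strand members it would be 27.04% if no unread base were a U and 33.5% if every one were.

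Along the cluster the first 10 kb had the lowest share of 5′ U and the highest share of A at position 10. Members there had a 5′ U in 70.5% of cases (68.5–72.4%), against 73.3 to 79.1% in the other 5 blocks of 10 kb, and A at position 10 in 36.3% (34.3–38.4%), against 28.5 to 31.3%. The 5′ U interval overlapped those of block 4 (71.3–75.1%) and block 6 (72.2–76.7%). A at positions 11 to 20 was also highest in the first block, at 32.1%, against 27.1 to 30.9%. The covered bases of the first block held 25.5% U and 27.7% A, against 26.97 to 30.1% U and 24.1 to 26.8% A in the others. U positions were used in 35.01% of cases there (32.8–37.2%), and in 29.5 to 34.2% in the other blocks. The part of the base content in these shares was not tested. Blocks held between 1545 and 2146 members, of which 0 to 43 were on the minus strand. Their mean lengths lay between 27.03 and 27.2 nt and the sequences per plus-strand end between 1.78 and 1.97.

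Set among the 510 clusters of the list, the chromosome 2 cluster ranked 4th by its number of sequences, and its first base, A at position 10 and mean length lay within the middle 90% of the others. The clusters above it, on chromosomes 17, 10 and 7, held 33985, 19234 and 17004 sequences, of which 61.8%, 66.7% and 64.3% began with U. Its 182 sequences per kb were exceeded by 12 clusters, a value that belongs to how it was chosen. Its share with a 5′ U was above that of 425 of the 509 others, whose median was 69.6% and whose middle 90% ran from 60.4 to 77.3%. U made up more of its covered bases than in 412 of them. The use of U positions, at 32.2%, equalled the median of the other clusters to 3 digits. A at position 10 (30.98%, median of the others 30.5%) and the ratio of U to other bases in use (5.27, median 4.47) lay within their middle 90% as well. Coverage was high, a value tied to the density and strand by which the interval was chosen: 71.7% of its bases lay under a sequence of the main strand, against a median of 29.5% and a middle 90% of 17.5 to 46.7%. Only 1 cluster had more, chr14:24900001-24940000, also a plus-strand cluster, with 71.8%. It was singled out after its value was seen, and had 188 sequences per kb and a 5′ U in 72.5%. With 99.9% of its sequences on the plus strand, it had 1 opposite-strand pair with a 10-nt overlap. Its mean for the other overlaps was 0.789. The cluster at chr9:67540001-67600000, of equal length and with 171 sequences per kb, had 78.2% of its sequences and 49.99% coverage on its main strand, a 5′ U in 74.9% and 17 such pairs against a mean of 6.79 for the other overlaps. Coverage depends on how much of the joined windows the sequences fill, and the part of this was not tested.

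**Figure D5:**
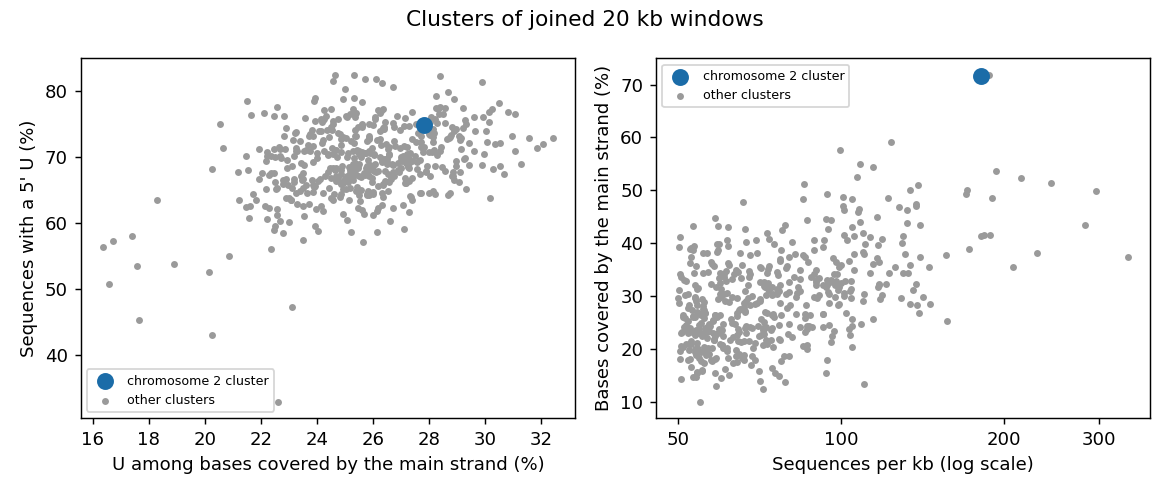
Each point is a cluster of joined 20 kb windows with at least 1000 sequences each. Left, share of sequences with a 5′ U against U among the covered bases (both %). Right, covered bases (%) against sequences per kb (log axis). The chromosome 2 cluster lies inside the cloud on the left and, at 71.7% coverage, near its upper edge on the right.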

How the data were processed

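MILI-bound small RNAs of 4 libraries were listed by the authors in 1 deposited table. Per the file headers its columns are sequence, chromosome, start, end and strand. The deposited values are genome positions and not read counts. Per the submitters' processing notes, positions are on mm9. Aligner and filters: not given in the sources used here. No sequence occurred in more than 1 of the 4906138 rows, and lengths equalled spans. Depth per library is unknown, so the comparison of Tdrd9-/- with Tdrd9+/- could not be made and no test across samples was run.

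The members and lists were chosen with earlier results of these data known. Named ends, pairs, bins and genes follow fixed rules: the 5 fullest ends, the first 5 pairs, the fullest and emptiest 1 kb bins, genes with an exact match and their neighbours. The 100 b stretches and Rps27a were added after values were seen. Bases were read from overlapping members, which disagreed at 0 positions. Transcripts came from GENCODE M21 (GRCm38) and were matched over the whole sequence, and no coordinate was converted. Pairs count distinct ends. Exact Clopper-Pearson 95% intervals cover counting error only, and overlapping sequences are not independent. The counters were tested on simulated data. Software was scipy 1.17.1, numpy 2.4.6 and pandas 2.3.3 under Python 3.11.15, with figures by matplotlib 3.10.9.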

Additional observations from a re-analysis of the deposited data

How the results depend on the processing

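No paired analysis was possible because the deposited table carries no libraries, and leaving out replicates could not be run for the same reason. Of 38 alternatives over 11 results, 30 stayed within the 95% interval of the value or within 1.5 times a count. Counting distinct 5′ ends gave 5803 members, 98.9% on the plus strand, 66.9% with a 5′ U and 29.9% with A at position 10. Taking each end by its mean length, or only sequences of 24 to 31 nt, put the mean length at 27.1 nt in both cases (27.13 against 27.08 nt). The dense 59 kb alone had 99.5% plus-strand members and 72.4% coverage. Ends with many sequences weigh more when sequences are counted. The 10-nt pairs numbered 13 to 14. From its first to its last bin past the limit, the dense stretch spanned 57 to 60 kb under other bins and limits, but at 100 sequences per kb the longest unbroken run was 24 kb. U after the 3′ end had an interval that held its share of covered bases once distinct 3′ ends were counted. The list limits all results, since it holds neither abundance nor libraries.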
